A study of Mus musculus with 10 samples.

Results

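Interferon-induced genes were followed in mouse Ph+ acute lymphoblastic leukaemia cells grown out under rising doses of dasatinib, a kinase inhibitor that blocks BCR-ABL1. The 45 members were listed by symbol: genes known to respond to interferon, the sensors of foreign or misplaced RNA and DNA that start the response, and regulators of both. All 45 were found among the 29955 genes of the deposited count table, and 36 of them were among the 12282 genes with enough counts to be tested. The table holds RNA-seq counts of 10 libraries of a murine line that carries BCR-ABL1 p185. Dasatinib 16x (3 libraries) and dasatinib 1x (3 libraries) are lines that grew out under dasatinib, at dose steps that the labels give as multiples of the IC90. DMSO 16x and DMSO 1x (1 library each) are lines taken through the vehicle alone under the same step names, and parental (2 libraries) is the untreated starting line. The 4 libraries of the DMSO and parental lines are called drug-free below. Every group carried the same oncogene and grew in the same medium, and the sources used here do not give whether the drug was present when RNA was taken. The dasatinib libraries are titled biological replicates and the parental ones replicates. No label gives their cultures or clones, so the p-values reflect the spread between these libraries, and that spread may be technical.

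Interferons are secreted proteins that cells release after sensing viral or misplaced nucleic acid. They bind receptors that act through the kinases JAK1 and TYK2. Type I interferons activate a complex of STAT factors and IRF9 that binds the interferon-stimulated response element (ISRE), and interferon gamma activates STAT dimers that bind the gamma-activated site (GAS). The induced genes encode proteins that cut viral RNA, stop translation, trap virus particles or tag proteins with ISG15, and many of the sensors and STAT and IRF factors are themselves induced. In leukaemia cells the same genes are also read as a sign of interferon or STAT signalling without infection.

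The response elements can be read in the promoters of the members. RefSeq windows of 300 bases (GRCm38.p6, 250 bases before the start site and 50 from it on) matched 35 of the 45 members by symbol, with 44 windows. The 10 without a window were Dhx58, Zbp1, Oas2, Mx1, Mx2, Usp18, Parp9, Parp14, Rtp4 and Ly6e. An ISRE core, searched as GAAANNGAAA on both strands, was present for 17 of the 35 members (48.6%), against 3.99% of the 27025 genes with a window. Counted by window it was 38.6% for members and 3.44% for all. A GAS core, searched as TTCNNNGAA, which reads the same on both strands, was present for 10 of 35 members (28.6%) and 9.55% of all genes. Both cores overlapped in 1 member window, that of Bst2. A match describes these letters and shows no binding.

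The following windows of 90 bases belong to members that the results turn on, and capitals mark ISRE cores on either strand. Ifit1 (chr19:34640745-34640834, plus strand) and Isg15 (chr4:156200847-156200936, minus strand) are shown because each carries more than 1 match of the ISRE core but was barely read in these cells. The matches of Ifit1 lie apart, and those of Isg15 overlap in a single run. Oas3 (chr5:120777685-120777774, minus strand) is shown as the called member with the highest fold in dasatinib 16x against drug-free lines. Gbp2 (chr3:142620564-142620653, plus strand), Gbp3 (chr3:142559954-142560043, plus strand) and Igtp (chr11:58199466-58199555, plus strand) encode GTPases whose dose steps differed between dasatinib and DMSO lines. Samhd1 (chr2:157135097-157135186, minus strand) and Trim25 (chr11:88999313-88999402, plus strand) are members with large differences and no ISRE core in the letters searched. Samhd1 has a GAS core whose first base is at -235 from the start site, outside the printed window. Each is printed 5′ to 3′ on the gene's strand.
Ifit1: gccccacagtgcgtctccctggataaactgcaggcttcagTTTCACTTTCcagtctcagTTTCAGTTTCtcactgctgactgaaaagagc
Isg15: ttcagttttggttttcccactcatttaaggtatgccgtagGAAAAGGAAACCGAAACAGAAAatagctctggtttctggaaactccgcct
Oas3: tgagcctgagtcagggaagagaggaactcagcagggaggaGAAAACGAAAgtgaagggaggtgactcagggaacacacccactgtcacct
Gbp2: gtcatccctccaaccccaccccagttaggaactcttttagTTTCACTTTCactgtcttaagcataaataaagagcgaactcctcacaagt
Gbp3: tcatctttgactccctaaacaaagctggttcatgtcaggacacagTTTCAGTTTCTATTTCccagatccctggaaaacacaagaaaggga
Igtp: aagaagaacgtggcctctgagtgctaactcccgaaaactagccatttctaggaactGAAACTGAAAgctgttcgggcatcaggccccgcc
Samhd1: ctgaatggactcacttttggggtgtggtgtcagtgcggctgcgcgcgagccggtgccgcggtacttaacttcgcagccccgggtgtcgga
Trim25: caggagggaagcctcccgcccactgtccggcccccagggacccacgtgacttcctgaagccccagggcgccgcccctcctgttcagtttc

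**Figure D1:**
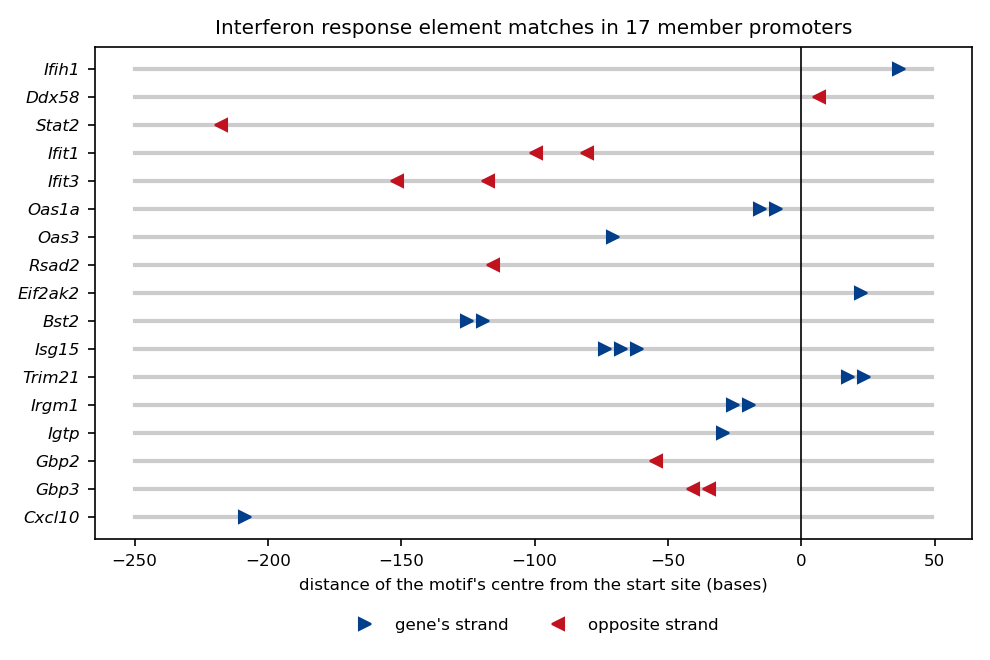
Positions of the ISRE core in the 17 member promoters that hold one, as the distance in bases of the motif's centre from the RefSeq start site (0); grey lines span the 300 bases searched, and arrowheads give the strand. Ifit1, Ifit3, Isg15, Gbp3, Oas1a, Irgm1, Bst2 and Trim21 hold more than 1 match of the core. The matches lie apart in Ifit1 and Ifit3 and overlap in the others. Those of Ddx58, Ifih1, Eif2ak2 and Trim21 lie past the start site.

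Libraries held 29049760 to 45813092 counts, and 18621 genes had a count. Replicates differed by more than sampling noise (1.91 to 16.9 chi-square per gene), so none was counted as a copy. DMSO 16x stood apart along principal component 1, which held 48.3% of the variance, at 68.7 against -34.1 to 45.9 for the others, so counts and calls that it decided are also given without it. Genes of chromosome 5, which carries Oas1a, Oas2, Oas3, Oasl1, Oasl2 and Cxcl10, shifted together between groups (median log2 change of 736 genes 0.22 in dasatinib 16x against drug-free lines and -0.47 in DMSO 16x against parental lines). This chromosome gave 557 of the 2320 genes higher in dasatinib 16x than in DMSO 16x lines, and 361 of 843 at 1x. It also gave 516 of the 1995 genes lower in DMSO 16x than in parental lines. The shares of all genes given for these comparisons include that shift. The 10 markers of B-lineage identity fixed for this study summed to 3910 to 4130 CPM (counts scaled to library size) in dasatinib 16x, 4060 to 4250 CPM in dasatinib 1x and 4130 to 4540 CPM in drug-free libraries. Of these markers Ebf1, a transcription factor of B-lineage cells, was under 1 CPM in every library. Of the defining markers of other cell types, several were at or near 0, while Lck, Tcf4 and Lyz2 of the T cell, plasmacytoid dendritic cell and myeloid lists were read at 17.2 to 27.3, 126 to 177 and 3.09 to 7.8 CPM. The 7 stromal markers summed to at most 0.0735 CPM, Cd3e, Cd3d and Cd3g of T cells reached at most 0.0633 CPM each, and Siglech of plasmacytoid dendritic cells, the main interferon producers, had 0 counts.

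No interferon gene had a counted read, though reads shared by close Ifna paralogs could have been lost in the authors' counting. The 19 genes for type I, II and III interferons found in the table had 0 counts in each of the 10 libraries, and 0 counts allow at most 0.102 CPM in the shallowest (3 counts per library, counting error only). The members spanned a wide range of levels, from Cxcl10, with 0 counts in every drug-free library, to Ly6e, a surface protein of immature lymphocytes, at 643 to 794 CPM. In bulk RNA, fewer cells with a transcript and less of it in each cell cannot be told apart. CPM are not set against gene length, so they compare libraries and not genes with each other. For 14 of the 45 members, every library was under 1 CPM. These were Irf7, Ifit1, Oas1a, Oas2, Oasl1, Oasl2, Mx1, Mx2, Rsad2, Isg15, Usp18, Cxcl10, Rtp4 and Ifi44, and 6 of them were tested. Among all tested genes 1251 were as low. An ISRE core was present for 5 of the 9 low members with a promoter window and for 12 of the 26 others.

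**Figure D2:**
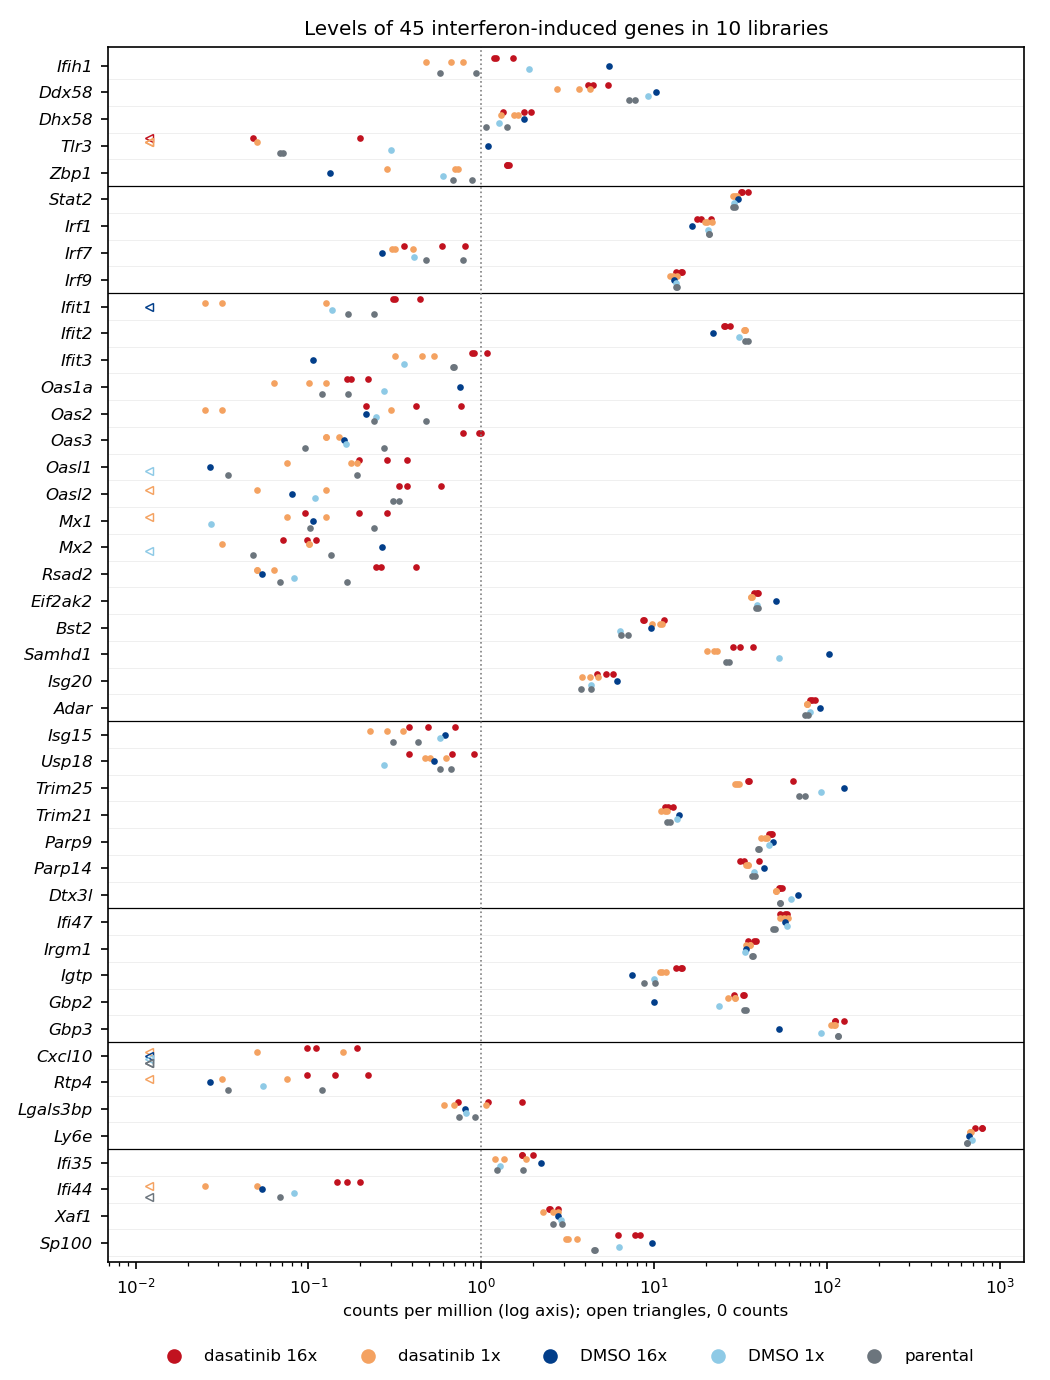
CPM of the 45 members in each library on a log axis, in role order (sensors, transcription factors, effectors, ubiquitin and ISG15 genes, GTPases, secreted and surface proteins, others); each point is 1 library, open triangles mark 0 counts, and the dotted line is 1 CPM. The 14 low members lie left of the line in all libraries, while Ly6e lies near the right edge.

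Between dasatinib and drug-free lines 6 members were called at 16x and 2 at 1x. Members are called at an edgeR quasi-likelihood p under 0.05 after Benjamini-Hochberg adjustment over all 12282 genes. In dasatinib 16x against drug-free lines 4 of 36 members were higher and 2 lower, where 7.79% of all genes were higher and 8.33% lower. In dasatinib 1x against drug-free lines 0 were higher and 2 lower, where all genes gave 0.822% and 1.14%. Between dasatinib 16x and dasatinib 1x, 1 member was higher and 0 were lower, where all genes gave 1.21% and 0.928%. At an unadjusted edgeR p under 0.05 there were 9 of 36 members in dasatinib 16x against drug-free lines (3861 of 12282 genes), 10 in dasatinib 1x against drug-free lines (2432 genes) and 11 between 16x and 1x (1942 genes). DESeq2 gave 0 higher and 3 lower at 1x, where it called 853 of all genes against 241 in edgeR. Between 16x and 1x it gave 4 higher and 0 lower. At 16x the member counts lay near the shares of all genes. At 1x the 2 lower members, Ddx58 and Trim25, were more than that share gives, and they were lower at 16x too, against the same drug-free libraries.

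The sign of the differences between the dose steps leaned one way. In dasatinib 16x against dasatinib 1x lines 32 of 36 members had a positive log2 change (88.9%, against 50.6% of all genes), with a median of 0.23 for members and 0.002 for all. The median was 0.16 in dasatinib 16x against drug-free lines (69.4% positive, all genes 49.1%) and -0.1 in dasatinib 1x against drug-free lines (33.3% positive, all genes 48.3%). Members that passed the filter mainly through the dasatinib 16x libraries add to this: Ifit1 was past the filter's level in those 3 libraries alone, and Oas3 and Oasl2 in those 3 and in 1 and 2 others. These shares are descriptions with no test, and both dasatinib groups share the drug-free libraries.

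Between the dose steps the calls changed with the fit. In a fit of 5 groups, where the DMSO and parental lines each keep their own mean, 10 members were higher and 1 lower in dasatinib 16x than in dasatinib 1x lines (all genes 7.28% and 6.31%). The members higher there were Ifih1, Zbp1, Ifit1, Ifit3, Oas3, Oasl2, Samhd1, Igtp, Ly6e and Sp100, and Ifit2 was lower. Of these, Ifit1, Oas3 and Oasl2 were tested because they were high at 16x, so the filter itself favours their part of the count. Against the parental libraries alone, that fit gave 8 higher and 2 lower at 16x (all genes 13.7% and 12.8%) and 1 higher and 1 lower at 1x (all genes 2.88% and 2.88%). Single libraries moved the counts of members and of all genes together. Without DMSO 16x, 10 members were called in dasatinib 16x against drug-free lines (all genes 2765, against 1980 with it), 8 between 16x and 1x (all genes 978, against 262), and 3 in dasatinib 1x against drug-free lines (all genes 516, against 241). Without dasatinib 16x A or without C, 2 were called in dasatinib 16x against drug-free lines (all genes 1058 and 1005). In dasatinib 1x against drug-free lines 0 were called without dasatinib 1x A, B or C (all genes 18, 17 and 36), and 1 without DMSO 1x (all genes 65). Between 16x and 1x, leaving out dasatinib 1x C gave 0 calls (all genes 41) and leaving out dasatinib 16x B gave 2 (all genes 199).

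**Figure D3:**
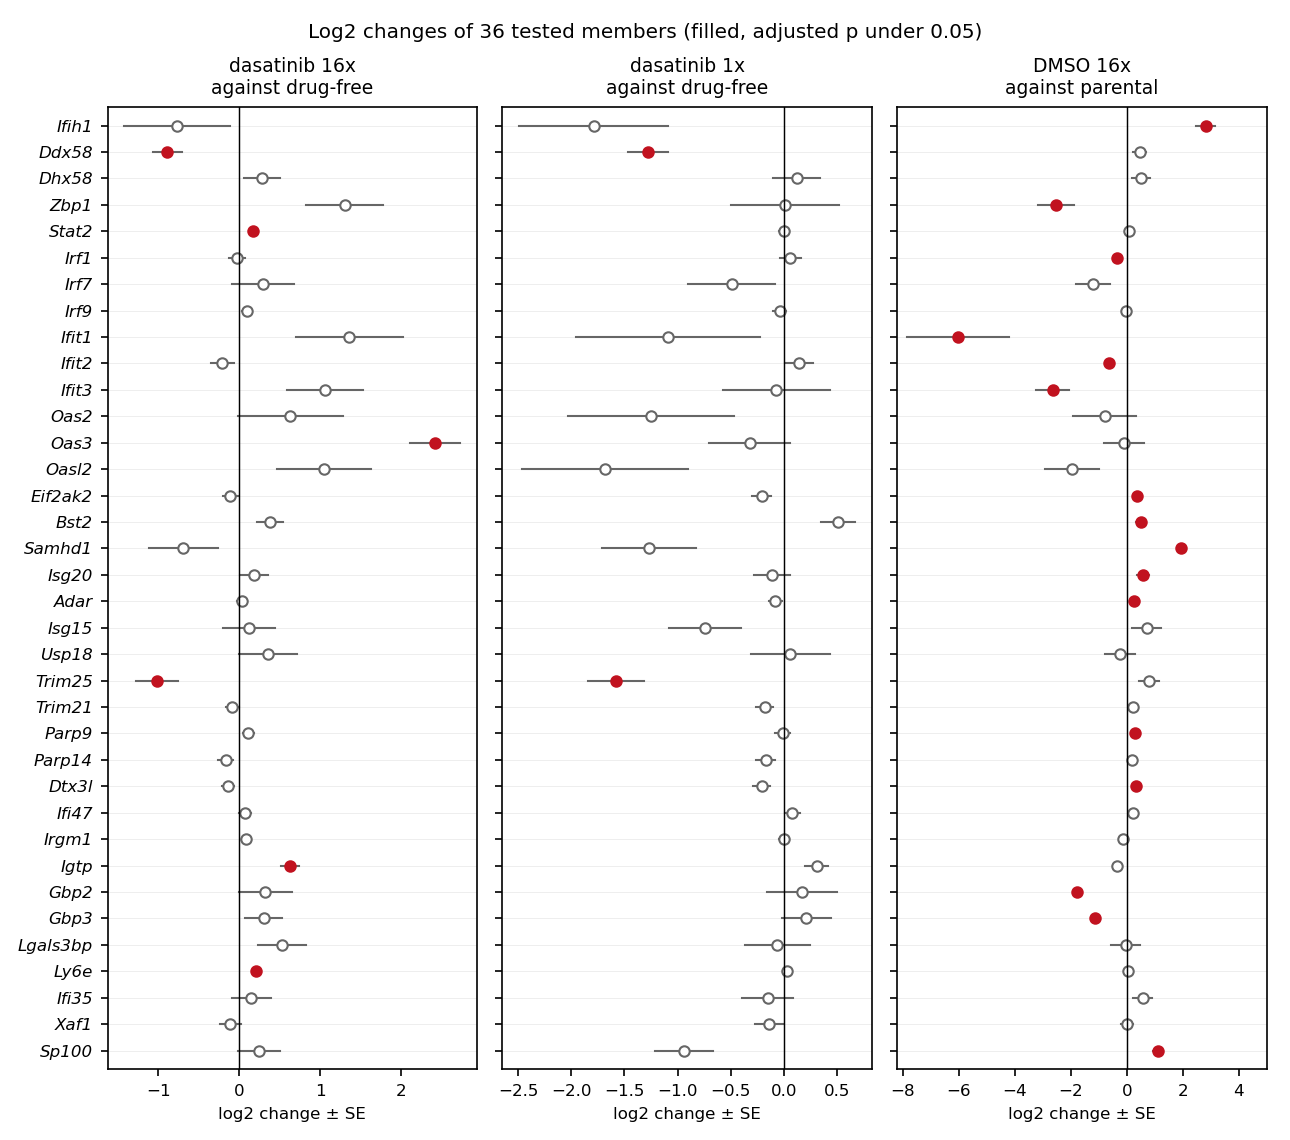
Log2 changes ± SE of the 36 tested members in dasatinib 16x against drug-free, dasatinib 1x against drug-free and DMSO 16x against parental lines (x axes differ in range); filled points have an edgeR adjusted p under 0.05. Ddx58 and Trim25 are filled left of 0 in both dasatinib panels, and in the DMSO panel 16 members are filled on both sides of 0; the value of Ifit1 there is a fitted one, since DMSO 16x had 0 counts.

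Among the 5 sensors, Ddx58 and Ifih1 were lower in dasatinib lines than in the DMSO lines. Ddx58, which encodes RIG-I, the sensor of short RNA with a free 5′ triphosphate, stood at 4.44, 5.39 and 4.13 CPM in dasatinib 16x and at 3.7, 4.23 and 2.75 CPM in dasatinib 1x libraries, against 10.3 CPM in DMSO 16x, 9.22 CPM in DMSO 1x, and 7.8 and 7.13 CPM in parental libraries. All 6 dasatinib libraries lay below all 4 drug-free ones. Its log2 change against drug-free lines was -0.89 ± 0.18 at 16x (edgeR adjusted p = 0.0122) and -1.28 ± 0.19 at 1x (edgeR adjusted p = 0.0137; ± is the SE for log2 changes throughout). The 1x call was lost when any one dasatinib 1x library was left out (edgeR adjusted p = 0.0579 to 0.0849). The 16x call was lost without dasatinib 16x A (edgeR adjusted p = 0.0504) or C (edgeR adjusted p = 0.0564). With the replicate letter as a block both calls were lost (edgeR adjusted p = 0.0596 at 16x and 0.057 at 1x). Against parental libraries alone it was lower too, by -0.68 ± 0.17 at 16x (edgeR adjusted p = 0.0131) and -1.07 ± 0.18 at 1x (edgeR adjusted p = 0.0042).

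Ifih1, which encodes MDA5, the sensor of long double-stranded RNA, stood at 1.21, 1.52 and 1.19 CPM in dasatinib 16x and at 0.664, 0.478 and 0.782 CPM in dasatinib 1x libraries, against 5.47 CPM in DMSO 16x, 1.89 CPM in DMSO 1x, and 0.579 and 0.933 CPM in parental libraries. The dasatinib and drug-free libraries overlapped, and the high value was that of DMSO 16x. Ifih1 was higher in DMSO 16x than in parental lines (log2 change 2.82 ± 0.34, edgeR adjusted p = 5.96e-05). It was lower in dasatinib lines than in the DMSO line of the same step, by -2.06 ± 0.3 at 16x (edgeR adjusted p = 0.000185) and -1.55 ± 0.34 at 1x (edgeR adjusted p = 0.0103). Tlr3, the endosomal sensor of double-stranded RNA, was too low to be tested and had 41 counts (1.1 CPM) in DMSO 16x and 0 to 11 counts in every other library. In the fit with no filter on low counts its log2 change in DMSO 16x against parental lines was 3.91 (edgeR adjusted p = 0.00255). Dhx58, which encodes LGP2, a cofactor of the other RNA helicases, was called in no comparison, at 1.06 to 1.94 CPM.

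Zbp1, a sensor of Z-form nucleic acid that can start cell death, moved against Ifih1 in the DMSO 16x line. It stood at 1.41, 1.45 and 1.41 CPM in dasatinib 16x and at 0.285, 0.729 and 0.706 CPM in dasatinib 1x libraries, against 0.134 CPM in DMSO 16x, 0.602 CPM in DMSO 1x, and 0.682 and 0.885 CPM in parental libraries. The dasatinib 16x libraries were the 3 highest and DMSO 16x the lowest. Against drug-free lines the log2 change at 16x was 1.3 ± 0.48 and missed the threshold (edgeR adjusted p = 0.0975), and without DMSO 16x it was 0.96 and passed it (edgeR adjusted p = 0.0494). Zbp1 was lower in DMSO 16x than in parental lines (log2 change -2.53 ± 0.65, edgeR adjusted p = 0.0104, and 0.054 without parental B). It was higher in dasatinib 16x than in DMSO 16x lines (log2 change 3.37 ± 0.61, edgeR adjusted p = 0.001).

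The factors that carry the interferon signal to DNA hardly differed. Stat2, the STAT partner of the ISRE complex, stood at 31.9, 35 and 32.1 CPM in dasatinib 16x and at 28.7, 30.1 and 29.4 CPM in dasatinib 1x libraries, against 30.6 CPM in DMSO 16x, 28.8 CPM in DMSO 1x, and 28.6 and 29.5 CPM in parental libraries. The dasatinib 16x libraries were the 3 highest, by a narrow margin. Its log2 change at 16x against drug-free lines was 0.17 ± 0.05 (edgeR adjusted p = 0.0433). That call was lost when any one of 9 libraries, all but DMSO 16x, was left out (edgeR adjusted p = 0.0638 to 0.135). Irf9, the DNA-binding part of the same complex, was called in no comparison, at 12.4 to 14.5 CPM. Irf7, which drives type I interferon genes, was under 1 CPM throughout and was called in no comparison. Irf1, an early activator downstream of interferon gamma, was called once. It was lower in DMSO 16x (16.5 CPM) than in parental libraries (20.8 and 20.7 CPM), with a log2 change of -0.33 ± 0.11 (edgeR adjusted p = 0.0431), and lost that call when any one dasatinib 1x or parental library was left out (edgeR adjusted p = 0.0552 to 0.132).

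Of the 16 antiviral effectors, 11 were tested. Oas3, which makes the 2-5A signal that activates the ribonuclease RNase L, was the one effector called in dasatinib 16x against drug-free lines. It had 44, 41 and 33 counts in dasatinib 16x and 4, 6 and 5 counts in dasatinib 1x libraries, against 6 counts in DMSO 16x, 6 in DMSO 1x, and 8 and 4 in parental libraries. In CPM these were 0.967, 1 and 0.788 in dasatinib 16x and 0.127, 0.151 and 0.126 in dasatinib 1x libraries, against 0.161 in DMSO 16x, 0.164 in DMSO 1x, and 0.273 and 0.0957 in parental libraries. All 3 dasatinib 16x libraries lay far above the 7 others.

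Oas3 was 5.37-fold higher in dasatinib 16x than in drug-free lines (log2 change 2.42 ± 0.31, edgeR adjusted p = 0.00137), and the call held whichever library was left out. It was past the filter's level in the 3 dasatinib 16x libraries, 1 drug-free and 0 dasatinib 1x libraries, so it was tested because it was high at 16x. In dasatinib 16x Oas3 was 6.68-fold higher than in dasatinib 1x lines (log2 change 2.74 ± 0.35, edgeR adjusted p = 0.00662, and 0.0533 without dasatinib 1x C). Against DMSO 16x the log2 change was 2.49 ± 0.59 (edgeR adjusted p = 0.00581, and 0.0514 with DESeq2). The shift of chromosome 5 around it was 0.22 on the log2 scale against drug-free lines, 0.01 against dasatinib 1x lines and 0.54 against DMSO 16x. Oasl2, a relative of the 2-5A synthetases, stood at 0.374, 0.588 and 0.334 CPM in dasatinib 16x and at 0, 0.126 and 0.0504 CPM in dasatinib 1x libraries, against 0.0804 CPM in DMSO 16x, 0.109 CPM in DMSO 1x, and 0.307 and 0.335 CPM in parental libraries. Its dasatinib 16x and 1x libraries did not overlap, but the 16x and parental ones did. It was called as higher in 16x than in 1x lines in the fit of 5 groups (log2 change 2.72 ± 0.61, edgeR adjusted p = 0.0118), not in the fit of 3 classes (edgeR adjusted p = 0.107). Oasl2 was past the filter's level in the 3 dasatinib 16x libraries and 2 drug-free ones, so it too was tested because it was high at 16x. Oas2 was called in no comparison.

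The Ifit genes encode proteins that bind viral RNA and block its translation. All 3 were lower in DMSO 16x than in parental lines and higher in dasatinib 16x than in DMSO 16x lines. Ifit1 had 20, 13 and 13 counts in dasatinib 16x and 1, 1 and 5 counts in dasatinib 1x libraries, against 0 counts in DMSO 16x, 5 in DMSO 1x, and 5 and 10 in parental libraries. Against a floor of 3 counts in the DMSO 16x library, it was at least 4.43-fold higher in dasatinib 16x than in DMSO 16x lines (edgeR adjusted p = 0.00585) and at least 2.55-fold lower in DMSO 16x than in parental lines (edgeR adjusted p = 0.0254, and 0.09 without parental B). Since Ifit1 passed the filter through the dasatinib 16x libraries alone, it had to be high there.

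Ifit3 stood at 1.08, 0.907 and 0.883 CPM in dasatinib 16x and at 0.316, 0.453 and 0.53 CPM in dasatinib 1x libraries, against 0.107 CPM in DMSO 16x, 0.356 CPM in DMSO 1x, and 0.682 and 0.694 CPM in parental libraries. The order was like that of Ifit1, with dasatinib 16x highest and DMSO 16x lowest. Ifit3 was higher in dasatinib 16x than in DMSO 16x lines (log2 change 3.12 ± 0.55, edgeR adjusted p = 0.000828) and lower in DMSO 16x than in parental lines (log2 change -2.65 ± 0.58, edgeR adjusted p = 0.00413). Ifit2 had at least 815 counts in every library. It averaged 26.2 ± 1.18 CPM in dasatinib 16x and 33.4 ± 0.252 CPM in dasatinib 1x libraries (SD, n = 3 each), against 21.8 CPM in DMSO 16x, 31 CPM in DMSO 1x, and 33.7 and 34.8 CPM in parental libraries. Both 16x lines lay below their 1x lines, and in the fit of 5 groups Ifit2 was lower in dasatinib 16x than in dasatinib 1x lines (log2 change -0.35 ± 0.05, edgeR adjusted p = 0.000705), where Ifit1 and Ifit3 were higher. Ifit2 was lower in DMSO 16x than in parental lines (log2 change -0.65 ± 0.08, edgeR adjusted p = 4.65e-05) and lower in dasatinib 16x than in parental lines (log2 change -0.39 ± 0.05, edgeR adjusted p = 0.000386). It was higher in dasatinib 16x than in DMSO 16x lines (log2 change 0.26 ± 0.07, edgeR adjusted p = 0.0131, and 0.0747 with DESeq2). Against drug-free lines it was called at 16x once DMSO 16x was left out (log2 change -0.34, edgeR adjusted p = 0.00186).

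Samhd1, which removes the nucleotides that viruses need for DNA synthesis, had the widest span of group means (2.24 on the log2 scale) among the effectors above 1 CPM in every library. It stood at 37.3, 31.6 and 28.6 CPM in dasatinib 16x and at 20.2, 23 and 22.1 CPM in dasatinib 1x libraries, against 103 CPM in DMSO 16x, 53.1 CPM in DMSO 1x, and 26.2 and 27.2 CPM in parental libraries. Both DMSO lines lay above every other library. Samhd1 was higher than in parental lines in DMSO 16x (log2 change 1.95 ± 0.13, edgeR adjusted p = 4.52e-06) and in DMSO 1x (log2 change 0.99 ± 0.13, edgeR adjusted p = 0.00398). It was lower in dasatinib lines than in the DMSO line of the same step, by -1.66 ± 0.12 at 16x (edgeR adjusted p = 4.16e-06) and -1.28 ± 0.12 at 1x (edgeR adjusted p = 0.000231). Against the drug-free class it was not called at 16x or 1x, and in the fit of 5 groups it was higher in dasatinib 16x than in dasatinib 1x lines (log2 change 0.58 ± 0.09, edgeR adjusted p = 0.00348).

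Eif2ak2, Adar, Isg20 and Bst2 differed by less. Eif2ak2 encodes PKR, which halts translation on double-stranded RNA. It averaged 39.1 ± 1.24 CPM in dasatinib 16x and 36.5 ± 0.306 CPM in dasatinib 1x libraries (SD, n = 3 each), against 51 CPM in DMSO 16x, 39.3 CPM in DMSO 1x, and 39.9 and 39.1 CPM in parental libraries. DMSO 16x alone stood out. Its log2 change was 0.37 ± 0.06 in DMSO 16x against parental lines (edgeR adjusted p = 0.000725) and -0.38 ± 0.06 in dasatinib 16x against DMSO 16x lines (edgeR adjusted p = 0.000272). Adar, which edits double-stranded RNA so that sensors do not see it, stood at 81.6, 85.1 and 80.2 CPM in dasatinib 16x and at 76.2, 76.4 and 76.5 CPM in dasatinib 1x libraries, against 90.9 CPM in DMSO 16x, 79.6 CPM in DMSO 1x, and 74.8 and 77.5 CPM in parental libraries. It was higher in DMSO 16x than in parental lines (log2 change 0.25 ± 0.05, edgeR adjusted p = 0.00238) and lower in dasatinib 16x than in DMSO 16x lines (log2 change -0.14 ± 0.05, edgeR adjusted p = 0.0352). That lower call was lost without dasatinib 16x C (edgeR adjusted p = 0.071), and also without dasatinib 1x A, dasatinib 1x C or parental A (edgeR adjusted p = 0.0516 to 0.0541), with no filter (edgeR adjusted p = 0.0557) and with DESeq2 (adjusted p = 0.109).

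Bst2, the tetherin that holds virus particles at the cell surface, stood at 8.73, 11.4 and 8.61 CPM in dasatinib 16x and at 11.1, 10.8 and 9.68 CPM in dasatinib 1x libraries, against 9.65 CPM in DMSO 16x, 6.32 CPM in DMSO 1x, and 7.02 and 6.46 CPM in parental libraries. DMSO 16x lay with the dasatinib lines. Bst2 was higher than in parental lines at dasatinib 16x (log2 change 0.51 ± 0.14, edgeR adjusted p = 0.017) and dasatinib 1x (log2 change 0.64 ± 0.14, edgeR adjusted p = 0.0184), and in DMSO 16x (log2 change 0.52 ± 0.18, edgeR adjusted p = 0.0448). The DMSO 16x call was lost when any one dasatinib 1x or parental library was left out (edgeR adjusted p = 0.0559 to 0.185). Against drug-free lines Bst2 was called once DMSO 16x was left out, at 16x (log2 change 0.54, edgeR adjusted p = 0.00963) and at 1x (log2 change 0.67, edgeR adjusted p = 0.013). Against DMSO 1x, Bst2 was higher in dasatinib 1x lines (log2 change 0.73 ± 0.18, edgeR adjusted p = 0.0177, and 0.0529 without dasatinib 1x A). Isg20, an exonuclease of RNA, was called once, as higher in DMSO 16x (6.06 CPM) than in parental libraries (4.33 and 3.8 CPM), with a log2 change of 0.58 ± 0.2 (edgeR adjusted p = 0.0447). It lost the call without either parental library (edgeR adjusted p = 0.0803 and 0.202) and without dasatinib 1x A or C (edgeR adjusted p = 0.0506 and 0.0642).

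The 5 untested effectors were read by 0 to 28 counts a library. Rsad2, which encodes viperin, an enzyme that makes a chain-ending nucleotide, had 19, 10 and 11 counts in dasatinib 16x and 2 counts in each dasatinib 1x library, against 2 counts in DMSO 16x, 3 in DMSO 1x, and 2 and 7 in parental libraries. In the fit with no filter on low counts its log2 change in dasatinib 16x against drug-free lines was 1.67 (edgeR adjusted p = 0.0474). Oas1a, another 2-5A synthetase, had 28 counts in DMSO 16x and 2 to 10 in every other library. In the unfiltered fit its log2 change in DMSO 16x against parental lines was 2.38 (edgeR adjusted p = 0.00894). Mx1 and Mx2, GTPases that block viral capsids, had 0 to 13 and 0 to 10 counts. Summed over the 14 low members of all roles, the level was 5.1, 5.17 and 3.36 CPM in dasatinib 16x and 1.68, 2.39 and 1.87 CPM in dasatinib 1x libraries, against 3 CPM in DMSO 16x, 2.27 CPM in DMSO 1x, and 3 and 3.52 CPM in parental libraries. The dasatinib 16x and 1x libraries did not overlap in this sum, while dasatinib 16x C lay within the parental range.

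**Figure D4:**
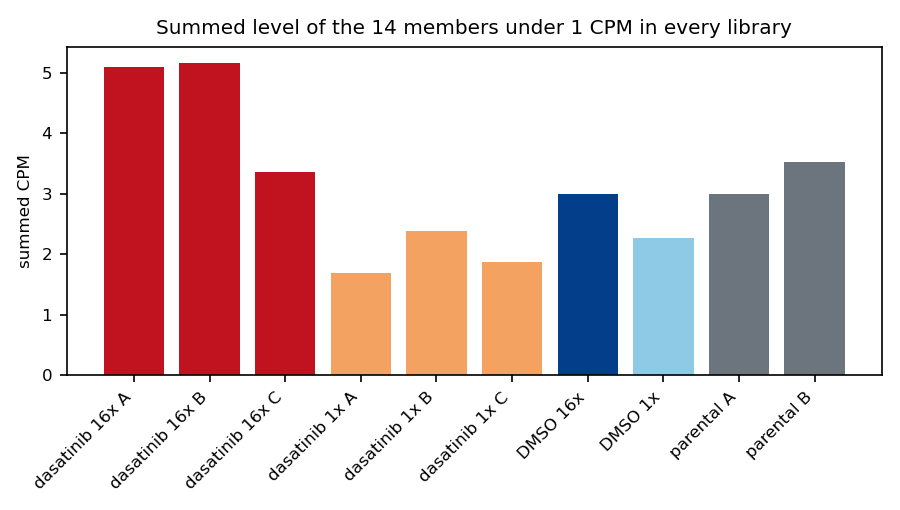
Summed CPM of the 14 members under 1 CPM in every library, 1 bar a library. Dasatinib 16x A and B reach 5.1 and 5.17 CPM, and the lowest bars are the 3 of dasatinib 1x and DMSO 1x, between 1.68 and 2.39 CPM.

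Trim25 had the widest span of group means (2.06 on the log2 scale) in the ubiquitin and ISG15 group. It encodes the ubiquitin ligase that activates RIG-I, the product of Ddx58. It stood at 35, 63.2 and 35.4 CPM in dasatinib 16x and at 30, 31.1 and 29.5 CPM in dasatinib 1x libraries, against 126 CPM in DMSO 16x, 91.8 CPM in DMSO 1x, and 74.5 and 69.2 CPM in parental libraries. All dasatinib libraries lay below all drug-free ones, with dasatinib 16x B nearest to them. Its log2 change against drug-free lines was -1.02 ± 0.26 at 16x (edgeR adjusted p = 0.0267) and -1.58 ± 0.26 at 1x (edgeR adjusted p = 0.0256). Without dasatinib 16x A or C the 16x call was lost (edgeR adjusted p = 0.101 and 0.102), as it was without DMSO 1x (edgeR adjusted p = 0.0581). Without any one dasatinib 1x library, or without DMSO 1x, the 1x call was lost (edgeR adjusted p = 0.0775 to 0.129). The replicate letter as a block lost both calls (edgeR adjusted p = 0.181 at 16x and 0.188 at 1x). So did the fit with no filter (edgeR adjusted p = 0.065 at 16x and 0.0549 at 1x). Against parental libraries alone the log2 change was -0.69 at 16x (edgeR adjusted p = 0.135) and -1.25 at 1x (edgeR adjusted p = 0.0784). Against the DMSO line of the same step, Trim25 was lower by -1.5 ± 0.33 at 16x (edgeR adjusted p = 0.0181) and -1.6 ± 0.33 at 1x (edgeR adjusted p = 0.036). The 1x call against DMSO 1x was lost without any one dasatinib 1x or parental library (edgeR adjusted p = 0.076 to 0.103).

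Dtx3l and Parp9 encode partners in a complex that joins ubiquitin ligation to ADP-ribosylation. Dtx3l stood at 53.1, 55.1 and 53.3 CPM in dasatinib 16x and at 50.9, 51 and 51 CPM in dasatinib 1x libraries, against 67.8 CPM in DMSO 16x, 61.8 CPM in DMSO 1x, and 53.7 and 53.2 CPM in parental libraries. Both DMSO lines were above the other 8 libraries. Dtx3l was higher than in parental lines in DMSO 16x (log2 change 0.34 ± 0.05, edgeR adjusted p = 0.000419) and in DMSO 1x (log2 change 0.21 ± 0.05, edgeR adjusted p = 0.0438). The DMSO 1x call was lost without dasatinib 1x A, dasatinib 1x C or either parental library (edgeR adjusted p = 0.0632 to 0.219). It was lower than in the DMSO line of the same step at dasatinib 16x (log2 change -0.33 ± 0.05, edgeR adjusted p = 0.000259) and 1x (log2 change -0.28 ± 0.05, edgeR adjusted p = 0.00362). Parp9 was higher than in parental lines in DMSO 16x (48.8 CPM against 39.9 and 40.4 CPM, log2 change 0.28 ± 0.07, edgeR adjusted p = 0.00595) and in dasatinib 16x (log2 change 0.23 ± 0.05, edgeR adjusted p = 0.00485). Isg15, the ubiquitin-like tag itself, and Usp18, which removes it, stayed under 1 CPM and were called in no comparison, nor were Trim21, an antibody receptor in the cytosol, and Parp14, an ADP-ribosyltransferase.

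The interferon-inducible GTPases attack the membranes around intracellular microbes. Of the 5, 3 were higher and 0 lower in dasatinib 16x than in DMSO 16x lines, where 18.9% of all genes were higher and 16.8% lower. In dasatinib 1x against DMSO 1x lines 1 was higher and 0 lower, where all genes gave 6.86% and 6.66%. Gbp2 stood at 32.6, 28.8 and 33 CPM in dasatinib 16x and at 29.4, 29.3 and 26.6 CPM in dasatinib 1x libraries, against 9.92 CPM in DMSO 16x, 23.6 CPM in DMSO 1x, and 34.2 and 33.1 CPM in parental libraries. Gbp3 stood at 111, 111 and 126 CPM in dasatinib 16x and at 112, 110 and 106 CPM in dasatinib 1x libraries, against 52.7 CPM in DMSO 16x, 92.4 CPM in DMSO 1x, and 116 CPM in each parental library. For both genes DMSO 16x was the lowest library and DMSO 1x the next, while the dasatinib libraries lay near the parental ones.

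Gbp2 was lower than in parental lines in DMSO 16x (log2 change -1.76 ± 0.11, edgeR adjusted p = 4.56e-07) and in DMSO 1x (log2 change -0.51 ± 0.1, edgeR adjusted p = 0.012). Gbp3 was lower too, by -1.14 ± 0.08 in DMSO 16x (edgeR adjusted p = 1.24e-06) and -0.33 ± 0.07 in DMSO 1x (edgeR adjusted p = 0.0246). Without parental A or parental B the DMSO 1x calls were lost for Gbp2 (edgeR adjusted p = 0.0842 and 0.0775) and for Gbp3 (edgeR adjusted p = 0.116 and 0.147). In dasatinib 16x against DMSO 16x lines, Gbp2 was 3.17-fold higher (log2 change 1.67 ± 0.1, edgeR adjusted p = 3.01e-07) and Gbp3 2.2-fold higher (log2 change 1.14 ± 0.07, edgeR adjusted p = 5.21e-07). Gbp3 was also higher in dasatinib 1x than in DMSO 1x lines (log2 change 0.24 ± 0.07, edgeR adjusted p = 0.0417), a call lost without any one dasatinib 1x or parental library (edgeR adjusted p = 0.0561 to 0.114). Gbp2 and Gbp3 lie beside each other on chromosome 3 and have close paralogs, so reads could have been split or lost in the authors' counting.

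Igtp, which encodes Irgm3, a GTPase that guards the cell's own membranes, stood at 14.3, 13.4 and 14.5 CPM in dasatinib 16x and at 11.7, 10.8 and 11.1 CPM in dasatinib 1x libraries, against 7.43 CPM in DMSO 16x, 9.93 CPM in DMSO 1x, and 8.79 and 10.1 CPM in parental libraries. The 3 groups did not overlap, with dasatinib 16x highest and drug-free lowest. Igtp was 1.55-fold higher in dasatinib 16x than in drug-free lines (log2 change 0.63 ± 0.11, edgeR adjusted p = 0.00484). The call held whichever library was left out, but not with the replicate letter as a block (edgeR adjusted p = 0.0543). In dasatinib 1x against drug-free lines the log2 change was 0.31 ± 0.11 (edgeR adjusted p = 0.173). Against DMSO 16x it was 0.92 ± 0.13 in dasatinib 16x lines (edgeR adjusted p = 0.000125). Irgm1, the related regulator of these GTPases, was called in no comparison, at 33.7 to 39.1 CPM.

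Ifi47, another GTPase of this family, stood at 57.1, 58.6 and 53.3 CPM in dasatinib 16x and at 56.8, 59.8 and 53.7 CPM in dasatinib 1x libraries, against 57.1 CPM in DMSO 16x, 59 CPM in DMSO 1x, and 50.1 and 48.6 CPM in parental libraries. The parental libraries were the lowest. Ifi47 was higher in dasatinib 16x than in parental lines (log2 change 0.19 ± 0.06, edgeR adjusted p = 0.0274). The other lines differed from parental as much without being called, by 0.2 ± 0.06 in dasatinib 1x, 0.26 ± 0.08 in DMSO 1x and 0.21 ± 0.08 in DMSO 16x. Some alternative settings called Ifi47 in both DMSO lines against parental lines. The replicate block called it in dasatinib 16x against drug-free lines.

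**Figure D5:**
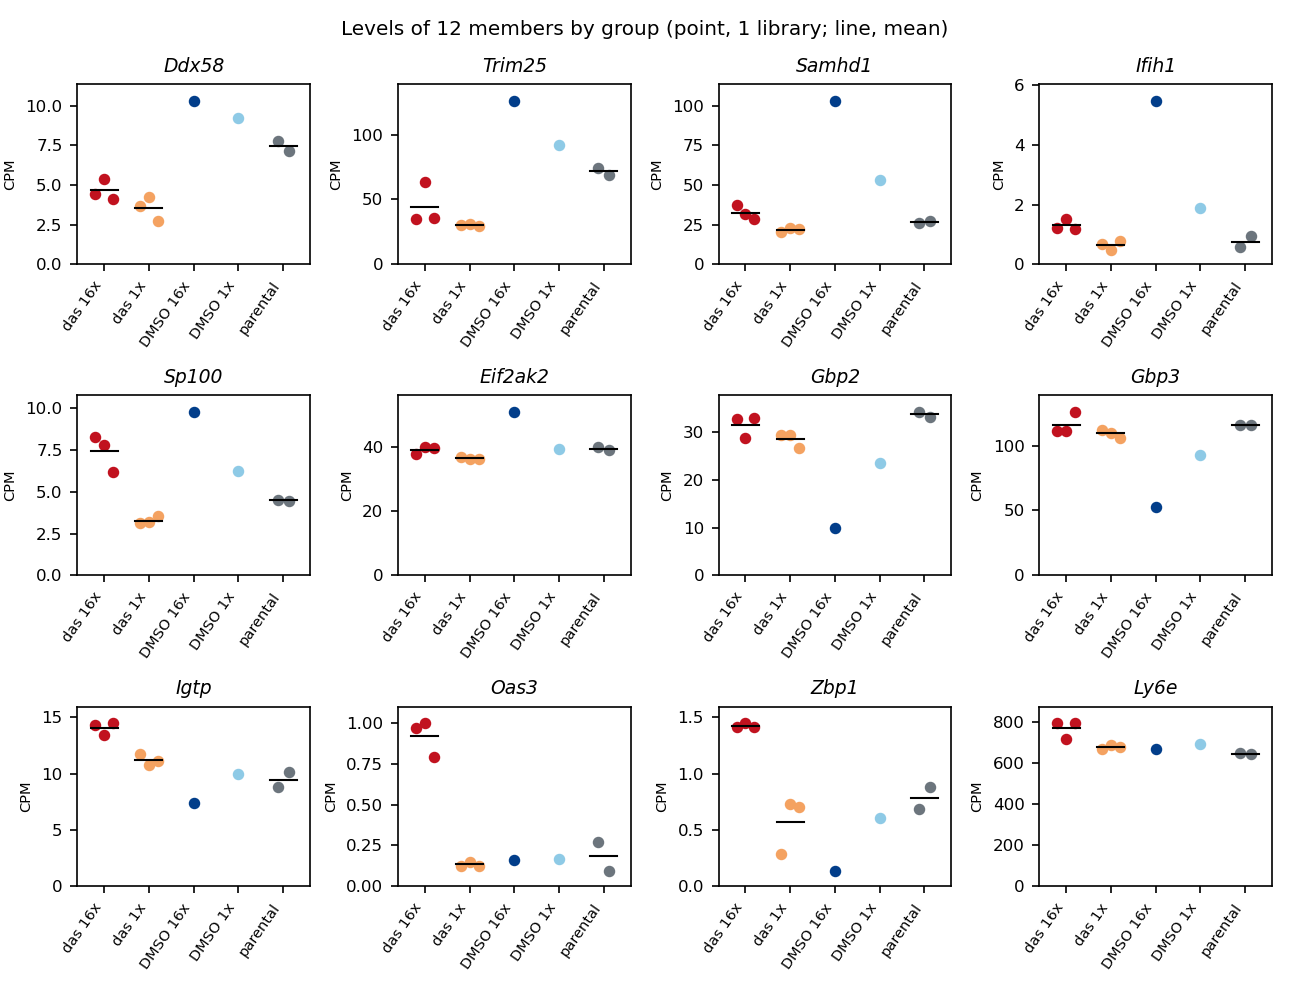
CPM of 12 members by group on linear axes from 0 (das, dasatinib; each point is 1 library, lines are means of groups with more than 1). Samhd1, Trim25, Ifih1, Sp100 and Eif2ak2 peak in DMSO 16x, where Gbp2, Gbp3, Igtp and Zbp1 are lowest, and Oas3 is high in the 3 dasatinib 16x libraries.

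Among the chemokine, surface and secreted proteins, Ly6e was called. It stood at 792, 716 and 794 CPM in dasatinib 16x and at 668, 685 and 675 CPM in dasatinib 1x libraries, against 667 CPM in DMSO 16x, 692 CPM in DMSO 1x, and 646 and 643 CPM in parental libraries. The dasatinib 16x libraries were the 3 highest. Its log2 change at 16x against drug-free lines was 0.21 ± 0.04 (edgeR adjusted p = 0.0122), and the call was lost without dasatinib 16x A or C (edgeR adjusted p = 0.0509 and 0.056). Against DMSO 16x it was 0.2 ± 0.06 (edgeR adjusted p = 0.0134). Lgals3bp, a secreted glycoprotein, was called in no comparison, at 0.605 to 1.71 CPM. Cxcl10, the chemokine that draws T cells and a standard readout of interferon, had 5, 4 and 8 counts in dasatinib 16x and 5, 0 and 2 counts in dasatinib 1x libraries, against 0 counts in each drug-free library. Rtp4 had 0 to 10 counts a library. Neither was tested.

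Sp100, a component of nuclear bodies that bind foreign DNA, was the one called member of the remaining 4. It stood at 8.26, 7.79 and 6.18 CPM in dasatinib 16x and at 3.1, 3.17 and 3.56 CPM in dasatinib 1x libraries, against 9.78 CPM in DMSO 16x, 6.27 CPM in DMSO 1x, and 4.53 and 4.47 CPM in parental libraries. Both 16x lines lay above their 1x lines, and dasatinib 1x was the lowest group. Sp100 was higher in DMSO 16x than in parental lines (log2 change 1.12 ± 0.19, edgeR adjusted p = 0.00064) and in dasatinib 16x than in parental lines (log2 change 0.72 ± 0.15, edgeR adjusted p = 0.00381). It was lower in dasatinib 1x than in DMSO 1x lines (log2 change -0.93 ± 0.18, edgeR adjusted p = 0.00483). Between 16x and 1x dasatinib lines the log2 change was 1.18 ± 0.28 in the fit of 3 classes (edgeR adjusted p = 0.073) and 1.18 ± 0.13 in the fit of 5 groups (edgeR adjusted p = 0.00016). Without DMSO 16x, Sp100 was also called in dasatinib 16x against drug-free lines (log2 change 0.54, edgeR adjusted p = 0.0339). Ifi35, Xaf1 and the untested Ifi44 were called in no comparison.

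The DMSO lines differed from the parental line without any drug, and they did so in both directions. In DMSO 16x against parental lines 9 members were higher (Ifih1, Eif2ak2, Bst2, Samhd1, Isg20, Adar, Parp9, Dtx3l and Sp100) and 7 lower (Zbp1, Irf1, Ifit1, Ifit2, Ifit3, Gbp2 and Gbp3), where 14.7% of all genes were higher and 16.2% lower. In DMSO 1x against parental lines Samhd1 and Dtx3l were higher and Gbp2 and Gbp3 lower, where all genes gave 3.31% and 2.87%. All 4 had the same sign in DMSO 16x. With DESeq2 the DMSO 16x calls of Irf1, Bst2 and Isg20 and the DMSO 1x call of Dtx3l were lost. The Dtx3l call was also lost with no filter. Without parental A or parental B 1 member was called in DMSO 1x against parental lines, and without dasatinib 16x B 7 were. Each DMSO line is 1 library, assumed in the fit to vary like the replicated groups, so a difference of the line and of the library cannot be told apart.

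Set against the DMSO line of the same step, the dasatinib lines differed in many of these members. In dasatinib 16x against DMSO 16x lines 9 were higher (Zbp1, Ifit1, Ifit2, Ifit3, Oas3, Igtp, Gbp2, Gbp3 and Ly6e) and 7 lower (Ifih1, Ddx58, Eif2ak2, Samhd1, Adar, Trim25 and Dtx3l), where 18.9% of all genes were higher and 16.8% lower. Ddx58 was lower there by -1.15 ± 0.21 (edgeR adjusted p = 0.000964). In dasatinib 1x against DMSO 1x lines Bst2 and Gbp3 were higher and Ifih1, Ddx58, Samhd1, Trim25, Dtx3l and Sp100 lower, where all genes gave 6.86% and 6.66%. Ddx58 was lower there by -1.37 ± 0.21 (edgeR adjusted p = 0.00129). Without dasatinib 1x A that count of 8 was 5. These comparisons share DMSO libraries with those against the parental line, so a gene that differs in DMSO 16x alone appears in both with opposite sign.

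The dose step itself was compared between dasatinib and DMSO lines, as the 16x minus 1x difference under dasatinib minus that under DMSO. It was positive at the threshold for 6 members and negative for 0, where all genes gave 5.37% and 1.37%. Gbp2 differed by 1.4 ± 0.14 on the log2 scale (edgeR adjusted p = 0.000141) and Gbp3 by 0.9 ± 0.1 (edgeR adjusted p = 0.000475), and both kept the call under every setting run. Igtp differed by 0.75 ± 0.17 (edgeR adjusted p = 0.0231, and 0.0561 without dasatinib 1x C). Zbp1 differed by 3.42 ± 0.78 (edgeR adjusted p = 0.0226) and Ifit3 by 2.82 ± 0.73 (edgeR adjusted p = 0.0407). The call of Ifit3 was lost without any one dasatinib 1x library, dasatinib 16x C or either parental library (edgeR adjusted p = 0.0514 to 0.0732). Ifit1 was called too (edgeR adjusted p = 0.0393), with 0 counts in DMSO 16x, and lost the call without dasatinib 1x A, dasatinib 1x B or either parental library (edgeR adjusted p = 0.0626 to 0.0715). With DESeq2 the step calls of Ifit3 and Igtp were lost as well. The 1 DMSO library at each step gives no spread of its own.

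The other genes of the pathway were read from lists. Of 10 tested receptor and JAK-STAT genes, 1 was higher and 1 lower in dasatinib 16x than in drug-free lines, where 7.79% of all genes were higher and 8.33% lower. Ifngr1, a chain of the interferon gamma receptor, averaged 90.9 ± 9.39 CPM in dasatinib 16x (SD, n = 3) and 69.9 ± 4.17 CPM in drug-free libraries (SD, n = 4; log2 change 0.38 ± 0.07, edgeR adjusted p = 0.00664). Ifnar1, a chain of the type I receptor, averaged 73.5 ± 1.29 CPM in dasatinib 16x and 92 ± 3.71 CPM in drug-free libraries (log2 change -0.32 ± 0.04, edgeR adjusted p = 0.000813). At dasatinib 1x 0 of the 10 were called (all genes 0.822% and 1.14%).

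Of 20 tested adaptors, kinases and IRFs, 2 were higher and 2 lower in dasatinib 16x than in drug-free lines (all genes 7.79% and 8.33%). Mavs, the adaptor through which RIG-I and MDA5 signal, was higher (log2 change 0.35 ± 0.04, edgeR adjusted p = 0.000753), as was Tmem173, which encodes STING (log2 change 0.68 ± 0.18, edgeR adjusted p = 0.033). Tmem173 stood at 85.3 CPM in DMSO 16x, against 159 and 161 CPM in parental libraries. Traf6, a ligase of the Toll-like receptor pathway, was lower (log2 change -0.32 ± 0.08, edgeR adjusted p = 0.0215), and so was Aim2, a DNA sensor named after its values were seen (log2 change -4.04 ± 1.1, edgeR adjusted p = 0.0368). Of 18 brakes on signalling, 1 was higher and 1 lower, against the same shares of all genes. Socs1, the inhibitor of JAK kinases, was higher (23.4 ± 0.694 CPM in dasatinib 16x and 14.1 ± 0.893 CPM in drug-free libraries, log2 change 0.73 ± 0.07, edgeR adjusted p = 0.000287) and Ube2l6, the enzyme that passes on ISG15, was lower (log2 change -0.62 ± 0.12, edgeR adjusted p = 0.0106). Both lists had 0 calls at dasatinib 1x, where all genes gave 0.822% and 1.14%.

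Of 61 other interferon-induced genes, 11 were higher and 5 lower in dasatinib 16x than in drug-free lines, with a median log2 change of 0.17, where all genes gave 7.79%, 8.33% and a median of -0.004. At dasatinib 1x 1 was higher and 1 lower (all genes 0.822% and 1.14%). Tap2, a subunit of the pump that loads peptides for MHC class I, stood at 126 ± 9.3 CPM in dasatinib 16x and 80.5 ± 3.87 CPM in drug-free libraries (log2 change 0.65 ± 0.05, edgeR adjusted p = 0.000247). It was higher at dasatinib 1x as well (104 ± 2.61 CPM, log2 change 0.37 ± 0.05, edgeR adjusted p = 0.0137). Ly6a, which encodes the surface protein Sca-1, stood at 10.2, 3.33 and 7.68 CPM in dasatinib 16x, against 1.1 to 1.31 CPM in drug-free libraries (log2 change 2.54 ± 0.35, edgeR adjusted p = 0.00208). Gca, a calcium-binding protein of granules, was higher as well, at 2.07, 1.47 and 2 CPM against 0.574 to 0.739 CPM (log2 change 1.48 ± 0.21, edgeR adjusted p = 0.00254).

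Among markers of other cells, 1 differed between the dose steps. Of 2 tested markers of plasmacytoid dendritic cells, Runx2 was higher in dasatinib 16x (1.49, 1.13 and 2 CPM) than in dasatinib 1x libraries (0, 0.0503 and 0.0252 CPM; log2 change 5.68 ± 1.06, edgeR adjusted p = 0.0307). It was also higher in DMSO 16x (1.13 CPM) than in parental libraries (0.0682 and 0.191 CPM; log2 change 3 ± 0.6, edgeR adjusted p = 0.0024). The list of 6 summed to 153 to 174 CPM in dasatinib 16x, 165 to 171 CPM in dasatinib 1x and 127 to 177 CPM in drug-free libraries, of which Tcf4 gave 126 to 177 CPM. The defining marker Siglech had 0 counts in all 10 libraries. Myeloid markers summed to 3.63 to 8.24 CPM in dasatinib 16x, 6.33 to 6.74 CPM in dasatinib 1x and 3.91 to 5.96 CPM in drug-free libraries, mostly from Lyz2, with Elane, S100a8 and S100a9 at 0 counts. T cell markers summed to 23.1 to 27.4 CPM in dasatinib 16x, 19.3 to 24.1 CPM in dasatinib 1x and 17.2 to 22.9 CPM in drug-free libraries, nearly all from Lck, with Cd4 at 0 counts. B-lineage markers also differed: 4 of 10 were lower in dasatinib 16x than in drug-free lines (all genes 8.33%), among them Cd79a, Cd79b and Pax5, by -0.2 to -0.39 on the log2 scale, and the part of these markers in the results above was not tested.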

How the data were processed

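RNA-seq counts per gene of 10 libraries were used as deposited by the authors, as raw counts. The submitters' processing notes name CASAVA 1.7.0, Trimmomatic 0.33, TopHat2 2.0.12, BWA 0.7.10, SAMtools, HTSeq 0.6.1, DESeq and mm9, and per the labels' protocols libraries were made with Illumina TruSeq. No source used here gives the strand setting, so reads of antisense or overlapping partners cannot be told apart. Close paralogs (the Ifit, Oas, Gbp, Irgm and Ifna families) may share or lose reads.

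Genes past filterByExpr at a minimum count of 10 were tested in edgeR 4.0.16 (R 4.3.3, TMM) by robust quasi-likelihood, with Benjamini-Hochberg adjustment over 12282 genes. Dasatinib 16x, dasatinib 1x and drug-free lines were compared in a fit of 3 classes (biological coefficient of variation 15.3%, 7 residual degrees of freedom). Comparisons with a DMSO line or with parental libraries alone used a fit of 5 groups (7.27%, 5 degrees of freedom). So did the difference of dose steps between dasatinib and DMSO lines, and a second comparison of dasatinib 16x with dasatinib 1x. CPM are on TMM-effective sizes, and ± beside CPM is the SD. Over all genes the median log2 change lay between -0.01 and 0.013. Where a group had 0 counts, a floor of 3 counts per library was used.

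The procedure was also run on simulated data, with the same spread for every gene and no drift between drug-free lines. That run therefore does not test the calls made here. Members, lists and tests were chosen with earlier results of these data known. By rule, every called member was named, and levels in each library were given for members called in a comparison of classes, for the 6 of highest mean CPM and for the 6 tested ones of widest span between group means, while lists gave at most 3 genes each. A few genes of the lists are not reported here. Other members given by library were added after their values were seen. Alternatives were RLE scaling, no filter, DESeq2 1.42.0, a replicate block, parental libraries alone, a fit of 5 groups and leaving out each library. The dose-step difference was added after seeing the data.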

Additional observations from a re-analysis of the deposited data

Results flagged for a closer look

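In 3 members, 1 of the 4 drug-free libraries lay far from the other 3 by Dixon's test, which marks about 1 group in 20 by chance. Irf1 stood at 16.5 CPM in DMSO 16x, against 20.6 CPM in DMSO 1x and 20.8 and 20.7 CPM in parental libraries. Eif2ak2 stood at 51 CPM in DMSO 16x, against 39.3 CPM in DMSO 1x and 39.9 and 39.1 CPM in parental libraries. Oas2 stood at 0.478 CPM in parental B, which is 20 counts, against 0.214 CPM in DMSO 16x, 0.246 CPM in DMSO 1x and 0.239 CPM in parental A.

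For 6 members the 16x minus 1x step differed between dasatinib and DMSO lines by edgeR's test of the difference. The differences on the log2 scale were 1.4 for Gbp2, 0.9 for Gbp3, 0.75 for Igtp, 3.42 for Zbp1 and 2.82 for Ifit3. The fitted value for Ifit1, 7.88, depends on the prior count, since DMSO 16x had 0 counts, and is no bound. In each of the 6, DMSO 16x was the lowest of the 10 libraries.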

How the results depend on the processing

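Leaving out each library in turn gave 0 to 3 members called in dasatinib 1x against drug-free lines (2 with all), 2 to 10 in dasatinib 16x against drug-free (6), 0 to 8 in dasatinib 16x against 1x (1), 5 to 10 in dasatinib 1x against DMSO 1x (8), 15 to 21 in dasatinib 16x against DMSO 16x (16), 1 to 7 in DMSO 1x against parental (4), 11 to 21 in DMSO 16x against parental (16) and 4 to 8 for the step difference (6). Over the same omissions the calls among all genes ran from 17 to 516 in dasatinib 1x against drug-free lines (241 with all libraries). They ran from 1005 to 2765 in dasatinib 16x against drug-free lines (1980 with all libraries). In dasatinib 1x against drug-free lines no filter gave 1 member (all genes 203). In dasatinib 16x against drug-free lines parental libraries alone gave 10. Between dasatinib 16x and 1x, DESeq2 gave 4 and the fit of 5 groups 11. RLE scaling stayed within 1.5 times the count in all comparisons. With the replicate letter as a block, 0 members were called in dasatinib 1x against drug-free lines (all genes 54). The block gave 4 in dasatinib 16x against drug-free lines (all genes 1330) and 2 between 16x and 1x. At 16x against drug-free lines Oas3 and Ly6e kept their calls, and Ifi47 and Parp9 were called anew. Ddx58, Trim25, Igtp and Stat2 lost theirs there. No label says whether the letters pair the lines. Libraries of one letter correlated weakly in their deviations, at 0.065, 0.027 and 0.052, though each correlated best with its own letter. Of 59 called member results 34 kept the call under every setting run for them, 25 lost it under at least 1, and 0 changed sign. The causes were not tested. Of the 14 members under 1 CPM in every library, 8 were too low to be tested, and depth limits what can be said of them.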
